A study of Mus musculus with 48 samples.

Results

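The 10 G protein alpha subunit genes Gnai1, Gnai2, Gnai3, Gnao1, Gnaz, Gnaq, Gna11, Gnas, Gna12 and Gna13 were followed through 48 RNA sequencing libraries of mouse striatum. They were chosen by symbol, and each was 1 of the 24060 gene rows of the deposited count table. All 10 had reads in every library and passed the filter on low counts in every comparison. The series text gives 24 adult mice, labelled C57, and each replicate had an IP library and an input library. The titles name 1 mouse for both, except in MPTP replicate 2, where they name different mice, and wild-type replicate 3 may hold 2 mice. IP is RNA precipitated with ribosomes that carry HA-tagged Rpl22, expressed in striatal astrocytes from a RiboTag virus for 3 weeks, and input is RNA of the cleared tissue lysate. The R6/2 experiment compared R6/2 mice given hM4Di with R6/2 mice given control cargo, so both groups carried the R6/2 transgene, which models Huntington's disease. The MPTP experiment compared MPTP (20 mg/kg in 4 doses), a toxin used to ablate dopaminergic neurons, with vehicle, and the labels place both agents in the striatum. The SAPAP3 experiment compared SAPAP3 knockout mice, studied as a model of compulsive behaviour, with wild-type littermates. Each group had 4 replicates. hM4Di is a designer receptor made from the human M4 muscarinic receptor that couples to Gi, and the series text says that the Gi pathway was activated in astrocytes of R6/2 mice. The labels do not name the promoter that drives hM4Di, the control cargo, or an agonist and its timing.

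A heterotrimeric G protein couples a receptor in the membrane to an effector inside the cell. The receptor makes the alpha subunit exchange GDP for GTP and part from the beta and gamma subunits, and the class of the alpha subunit sets the effector. Gi/o subunits inhibit adenylyl cyclase, and their beta and gamma partners act on ion channels and phospholipase C. The Gs subunit stimulates adenylyl cyclase, and Gq and G11 activate phospholipase C beta and release calcium from stores. G12 and G13 form the remaining class. In the striatum, medium spiny neurons use Golf, encoded by Gnal, in place of Gs for much of their dopamine and adenosine signalling. Astrocytes carry receptors of all 4 classes.

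Depth ran from 34.3 to 61.5 M gene reads in the IP libraries and from 21.9 to 39.0 M in the input libraries. The labels give striatal astrocytes as the tissue of both fractions, and the marker genes separated them. IP held over 2-fold more of all 10 astrocyte markers in the MPTP, SAPAP3 and R6/2 experiments, with a median log2 fold change of 2.54 (MPTP), 2.23 (SAPAP3) and 2.46 (R6/2), and all 10 microglial and all 10 medium spiny neuron markers measured were lower. The pan-neuronal median was positive, towards IP, for MPTP (0.22) and R6/2 (0.11). It was negative only for SAPAP3 (-0.24), where 5 of 8 markers were lower, so this list was not depleted throughout. The oligodendrocyte list had medians of 0.03, 0.77 and -0.01. The interneuron list, with medians of 1.86, 1.14 and 2.18, and the ependymal list, with medians of 1.57, 2.43 and 2.05, were higher in IP for 6 of 7 and 5 of 5 markers in each experiment. No marker was at 0 in all libraries of a group. The part of cells other than astrocytes in the IP levels of the members was not tested. Dlgap3, which encodes SAPAP3, kept reads in the knockout libraries, at 54.5 to 93.9 CPM in knockout IP against 165.5 to 220.4 in wild-type IP, and at 154.8 to 188.9 CPM in knockout input against 352.6 to 457.0 in wild-type input, with no overlap. In these bulk libraries, fewer cells of a type and less RNA per cell cannot be told apart. Input replicate 1 of the wild-type mice stood apart for several alpha subunits, and its values are given where they bear on a result.

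Per transcript length, Gnas was the most abundant of the 10 members in both fractions. Gnal, which is not among them, averaged more than Gnas in 5 of the 6 input groups, for example 170.8 against 95.4 FPKM in R6/2 mice with control cargo, and less than Gnas in all 6 IP groups. On the deposited FPKM scale, which divides reads by gene length and library total, Gnas ranged over 24 IP libraries from 122.4 to 161.2 with a median of 146.3, and over 24 input libraries from 77.2 to 156.1 with a median of 93.2. Gnas was the highest member within each of the 48 libraries, although its lowest IP value lay below the highest IP value of Gnao1 (129.3 FPKM). In IP, Gnai2 averaged 96.9 ± 8.37 FPKM and Gnao1 96.3 ± 12.6 (SD, n = 24 each), and Gnai2 was the higher in 10 of 24 libraries, so their order was not resolved. Gna13 followed at 72.2 ± 10.9, below Gnao1 in all 24 libraries although the 2 ranges overlapped, and Gna12 at 50.9 ± 6.60. Gnai1 (35.2 ± 4.43), Gna11 (32.9 ± 3.85) and Gnaq (32.6 ± 1.77) had overlapping IP ranges, as had Gnaz (23.6 ± 2.29) and Gnai3 (23.2 ± 2.88). In input, Gnas (104.2 ± 25.2 FPKM) was followed by Gnao1 (60.4 ± 8.26) and Gnai2 (55.6 ± 4.83), which overlapped. Gnai1, Gna12, Gna11, Gnaz and Gnaq lay between 47.2 and 33.2, each overlapping the next, and Gna13 was ninth at 24.7 ± 2.17. Gnai3 was last in input at 15.6 ± 1.91 FPKM, below Gna13 with no overlap.

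**Figure D1:**
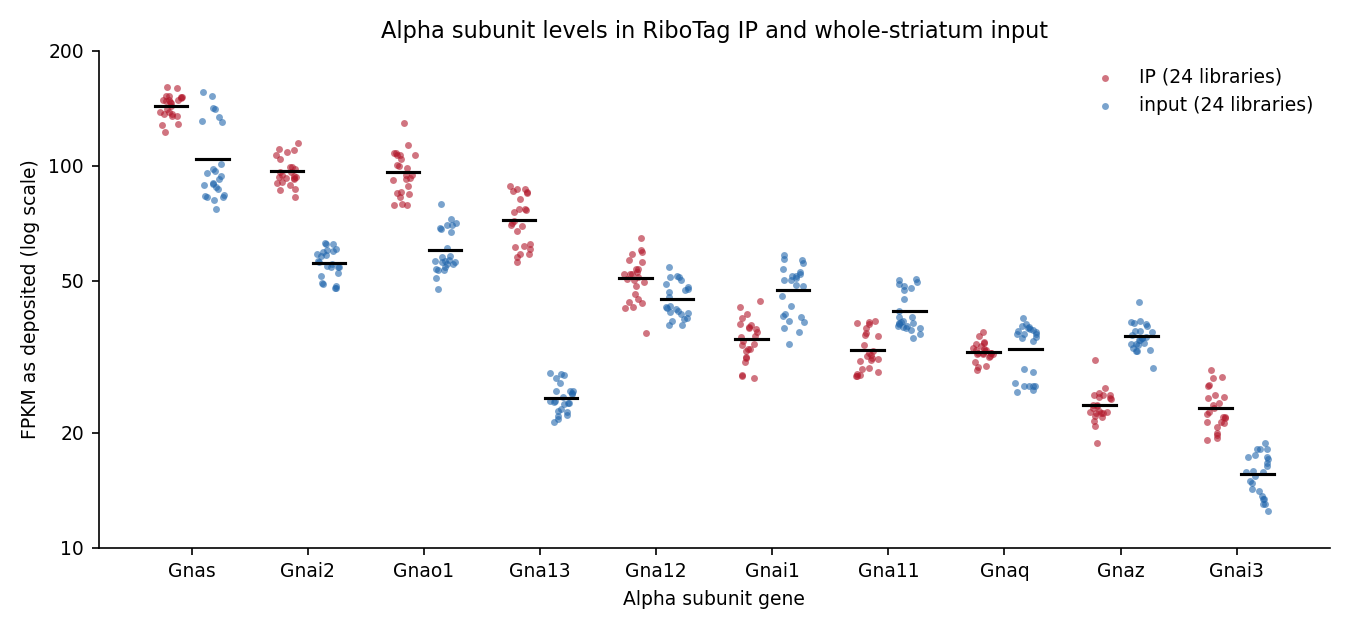
FPKM as deposited (vertical log axis) of the 10 alpha subunit genes (horizontal axis, ordered by mean IP level) in 24 IP libraries (red, left) and 24 input libraries (blue, right), with 1 point per library and a black bar at the mean. Gnas leads these 10 genes in both fractions, and Gna13 has the widest gap, with means of 72.2 FPKM in IP and 24.7 in input.

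The lengths behind the FPKM were shorter than the union of annotated exons for some members, 1880 against 3416 bases for Gna12 and 6059 against 11186 for Gnas. Rescaled to the union of exons in GENCODE M21, an alternative chosen after the values were seen, Gnas still led in IP with 77.8 ± 5.33 FPKM on that length (SD, n = 24), and Gna13 came next at 69.7 ± 10.5, ahead of Gnao1 at 67.3 ± 8.81 and Gnai2 at 55.8 ± 4.82. Gna12 then ranked seventh in IP. In input, Gnas had 56.4 ± 13.7 on that length, followed by Gnai1 at 48.1 ± 7.40 and Gnao1 at 42.2 ± 5.78 (SD, n = 24). These are means, and on that length Gnas was not the highest member within every library. The order between genes therefore depended on the length used, whereas a ratio of IP to input within 1 gene did not.

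Summed over the 10 genes, IP held 607.5 ± 25.6 FPKM and input 463.3 ± 35.6 (SD, n = 24 each). The sum leaves out Gnal, which encodes Golf and averaged 229.1 FPKM in vehicle input and 119.4 in vehicle IP. Shares with Gnal included were not computed, so the class shares below hold for these 10 genes only. They also rest on the gene lengths of the deposited FPKM, and shares on the union of exons were not computed. The classes took unlike shares of that sum. Gi/o subunits made up 45.3% ± 1.21 of it in IP and 46.4% ± 1.55 in input, and Gs 23.6% ± 1.10 in IP and 22.2% ± 3.65 in input. Gq and G11 took 10.8% ± 0.95 in IP and 16.2% ± 1.53 in input, and G12 and G13 took 20.2% ± 1.75 in IP and 15.1% ± 1.87 in input. Within Gi/o, Gnai2 and Gnao1 took 15.9% ± 1.19 and 15.8% ± 1.88 in IP, where Gnaz took 3.91% ± 0.51, against 12.1% ± 1.59, 13.02% ± 1.34 and 7.76% ± 0.78 in input.

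Set against whole striatum, the astrocyte IP held more Gna13, Gnai2, Gnai3, Gnao1, Gnas and Gna12 and less Gnaz, Gnai1 and Gna11 in all 3 experiments, by the quasi-likelihood test of edgeR, with p-values adjusted over all genes after Benjamini and Hochberg. Gnaq was called higher in IP in 2 of the 3, and the R6/2 call depended on the scaling. In the MPTP experiment 7 members were higher and 3 lower in IP, where 40.7% of the 15862 genes tested were higher and 42.9% lower. In the SAPAP3 experiment 6 were higher and 3 lower, against 40.3% and 40% of 16059 genes, and in the R6/2 experiment 7 were higher and 3 lower, against 39.3% and 41.1% of 15880 genes. Most genes thus passed this test, and size separated the members more than the call did. Over 2-fold higher were 3 members in the MPTP experiment (Gna13, Gnao1 and Gnas), where 12.5% of genes were, and Gna13 and Gnai2 in the SAPAP3 and R6/2 experiments, where 11.9% and 11.3% were. No member was over 2-fold lower, against 14%, 13% and 12.3% of genes. The median log2 fold change of the 10 members was 0.60 (MPTP), 0.43 (SAPAP3) and 0.59 (R6/2), beside -0.02, 0.00 and -0.02 for all genes tested.

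Upper-quartile scaling and limma-trend on log2 FPKM (pseudocount 1) moved the median of all genes from those values to between -0.14 and -0.18, so small IP differences depend on the scaling. The deposited FPKM is scaled to the library total but lacks the TMM factor of the main test. That factor raised every IP library and lowered every input library, so ratios of IP to input are lower on FPKM. On that FPKM, IP exceeded input within the same replicate in 24 of 24 pairs for Gna13, Gnai2, Gnai3 and Gnao1. IP exceeded input in 22 pairs for Gnas, in 19 for Gna12 and in 9 for Gnaq. It did so in 1 pair for Gnai1 and in 0 of 24 for Gna11 and Gnaz. For Gnaq the direction on this scale differed by experiment. Its mean was 31.8 FPKM in vehicle IP and 27.1 in vehicle input. In wild type the means were 32.2 in IP and 35.6 in input, and with control cargo 34.2 and 36.3. The MPTP, knockout and hM4Di groups had the direction of their comparison groups.

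**Figure D2:**
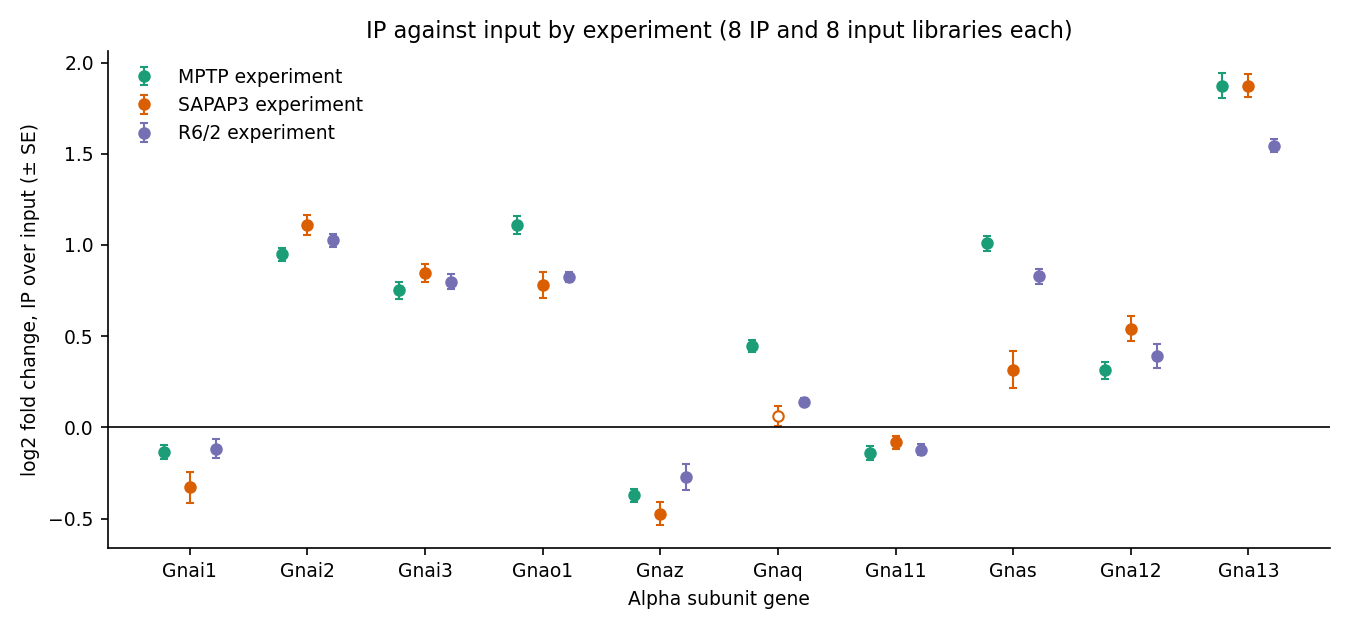
Log2 fold change of IP over input (vertical axis, ± SE) for each alpha subunit gene (horizontal axis) in the MPTP (green), SAPAP3 (orange) and R6/2 (purple) experiments, from 8 IP and 8 input libraries each. Filled points passed the adjusted threshold of 0.05 and the open point did not. Gna13 is highest in all 3 experiments, at 1.87, 1.87 and 1.55, and Gnas and Gnaq are the members that vary most between experiments.

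Gna13 and Gna12, the G12/13 class, are described first: Gna13 was the member farthest from whole tissue, and Gna12 had the largest difference with hM4Di. Gna13 lies on chromosome 11 at 109362831 to 109401369 on the plus strand and Gna12 on chromosome 5 at 140758408 to 140830431 on the minus strand (GRCm38, GENCODE M21). Their promoters are shown because these 2 genes carry those results. Each line spans the start of the gene and is read 5′ to 3′ on the gene's strand from RefSeq on GRCm38.p6, at chr11:109362544-109362843 on the plus strand for Gna13 and chr5:140830382-140830681 on the minus strand for Gna12. Capitals mark the GC box GGGCGG and the CCAAT box, each searched on both strands, so that CCGCCC also counts as a GC box.
Gna13: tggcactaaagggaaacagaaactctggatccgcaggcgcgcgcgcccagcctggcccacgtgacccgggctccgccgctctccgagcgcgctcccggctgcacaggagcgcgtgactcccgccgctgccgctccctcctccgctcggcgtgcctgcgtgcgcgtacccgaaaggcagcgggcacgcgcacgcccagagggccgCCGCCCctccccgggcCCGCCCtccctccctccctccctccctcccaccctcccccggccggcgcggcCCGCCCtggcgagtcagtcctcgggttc
Gna12: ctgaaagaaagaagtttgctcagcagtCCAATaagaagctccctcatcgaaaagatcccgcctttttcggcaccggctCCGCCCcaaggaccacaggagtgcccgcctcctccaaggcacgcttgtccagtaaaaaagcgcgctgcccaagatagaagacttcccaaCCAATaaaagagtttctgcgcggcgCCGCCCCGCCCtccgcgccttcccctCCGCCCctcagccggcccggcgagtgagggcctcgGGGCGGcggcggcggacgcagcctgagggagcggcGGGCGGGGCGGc
The Gna13 window held 3 GC boxes and no CCAAT box, and that of Gna12 held 7 GC boxes, 4 of them in 2 pairs that share 1 base, and 2 CCAAT boxes. A GC box occurred in 35.7% and a CCAAT box in 37.4% of 32851 mouse promoter windows of this length. The cAMP response element TGACGTCA occurred in 1.79% of them and in none of the windows matched to the members, which numbered 11 for 8 of the 10 genes. GC content was 76.7% in the Gna13 window and 65.7% in that of Gna12, where the median of all windows was 52.7%.

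Gna13 encodes the alpha subunit of G13. In the MPTP experiment its 8 IP libraries ranged from 404.9 to 538.9 CPM (median 512.1) and its 8 input libraries from 123.9 to 162.3 CPM (median 128.6). In the SAPAP3 experiment IP ranged from 461.4 to 610.5 CPM (median 574.0) and input from 131.8 to 167.1 CPM (median 151.5). In the R6/2 experiment IP ranged from 375.8 to 472.6 CPM (median 398.5) and input from 135.2 to 146.3 CPM (median 139.5). Every IP library was above every input library, and the lowest IP values were those of R6/2 mice. The log2 fold change of IP over input was 1.87 ± 0.067 (SE; adjusted p 7.43e-15), 1.87 ± 0.064 (adjusted p 7.62e-14) and 1.55 ± 0.035 (adjusted p 2.88e-16, edgeR). Gna12 was less far from whole tissue, at 86.5 to 131.7 CPM in IP and 66.1 to 78.2 CPM in input of the SAPAP3 experiment, where the fold change was largest (0.54 ± 0.070 on the log2 scale, edgeR adjusted p 1.51e-06). In the MPTP and R6/2 experiments it was 0.31 ± 0.046 (adjusted p 4.97e-06) and 0.39 ± 0.064 (adjusted p 2.66e-05, edgeR), and there limma-trend on log2 FPKM gave 0.08 and 0.15 and did not call it. Amz1, which overlaps Gna12 exons on the other strand, had reads equal to 7.10% to 13.8% of those of Gna12 in the IP groups and 20.9% to 32.6% in the input groups, and it was lower in IP in all 3 experiments.

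Among the Gi/o subunits, Gnai2, Gnai3 and Gnao1 were higher in IP and Gnai1 and Gnaz lower. Gnai2 and Gnai3, widely expressed inhibitors of adenylyl cyclase, had no overlap between fractions in any experiment. Gnai2 ranged in IP from 202.8 to 229.3 CPM (median 221.1) in the MPTP experiment, from 194.6 to 251.9 (median 221.8) in the SAPAP3 experiment and from 218.3 to 266.6 (median 250.8) in the R6/2 experiment. The matching input ranges were 107.3 to 125.9 CPM (median 110.7), 96.9 to 112.7 (median 100.1) and 116.9 to 125.7 (median 119.2). IP was thus close to 2-fold above input throughout, with log2 fold changes of 0.95 ± 0.037, 1.11 ± 0.055 and 1.03 ± 0.034 (largest edgeR adjusted p 5.05e-12). Gnai3 was lower in abundance but shifted nearly as far, by 0.75 ± 0.047, 0.85 ± 0.050 and 0.80 ± 0.041 (largest edgeR adjusted p 5.80e-11).

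Gnao1, the alpha subunit of Go, known as the most abundant one of brain membranes, was also higher in astrocyte IP than in whole striatum. Its IP libraries ranged from 767.7 to 967.0 CPM (median 834.5) against input at 337.4 to 441.6 (median 399.4) in the MPTP experiment. They ranged from 745.9 to 1110.1 CPM (median 869.5) against input at 471.1 to 572.4 (median 504.0) in the SAPAP3 experiment, and from 655.2 to 753.4 (median 695.6) against input at 377.8 to 408.7 (median 393.2) in the R6/2 experiment. No IP library overlapped an input library of its experiment. The log2 fold changes were 1.11 ± 0.048, 0.78 ± 0.070 and 0.82 ± 0.027, with edgeR adjusted p of 1.22e-13, 1.42e-08 and 2.23e-14.

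Gnaz and Gnai1 were the Gi/o members that IP held at lower levels. Gnaz encodes Gz, an inhibitory subunit that pertussis toxin does not modify, and its medians were 64.0, 58.5 and 63.4 CPM in IP and 81.2, 82.3 and 77.1 CPM in input of the MPTP, SAPAP3 and R6/2 experiments. The log2 fold change was -0.37 ± 0.037, -0.47 ± 0.063 and -0.27 ± 0.073 (largest edgeR adjusted p 0.00248), and the fractions overlapped in the SAPAP3 and R6/2 experiments. Gnai1 differed by -0.14 ± 0.039 (adjusted p 0.00375), -0.33 ± 0.085 (adjusted p 0.0018) and -0.12 ± 0.052 (adjusted p 0.0498, edgeR), and the last call was lost in 7 of 17 alternatives. Gnai1, on chromosome 5 at 18265135 to 18360355, Gnai2, on chromosome 9 at 107614125 to 107635367, and Gnai3, on chromosome 3 at 108107280 to 108146146, are on the minus strand, and Gnao1, on chromosome 8 at 93809966 to 93969388, and Gnaz, on chromosome 10 at 74967177 to 75016907, on the plus strand.

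Gnaq and Gna11, which activate phospholipase C beta, were near whole-tissue level in IP. Gnaq (chromosome 19, 16132831 to 16387463, plus strand) was higher in MPTP-experiment IP at 177.3 to 201.1 CPM (median 191.3), against 130.2 to 152.7 (median 138.5) in input, a log2 fold change of 0.45 ± 0.033 (edgeR adjusted p 2.87e-10). In the SAPAP3 experiment IP, at 189.0 to 229.0 CPM (median 197.4), overlapped input, at 147.4 to 209.9 (median 197.2), and the fold change of 0.06 ± 0.056 did not pass (edgeR adjusted p 0.322). In the R6/2 experiment it was 0.14 ± 0.023 (edgeR adjusted p 2.87e-05), and limma-trend on log2 FPKM turned the direction in both, calling Gnaq lower in IP by -0.15 in the SAPAP3 experiment and by -0.10 in the R6/2 experiment, as did, without a call, upper-quartile scaling in the SAPAP3 experiment (-0.08). Upper-quartile scaling also lost the R6/2 call (0.02, edgeR adjusted p 0.522). Gna11 (chromosome 10, 81528724 to 81545190, minus strand) was lower in IP by -0.14 ± 0.038, -0.08 ± 0.036 and -0.12 ± 0.028 on the log2 scale (largest edgeR adjusted p 0.0441), with overlapping libraries in all 3 experiments, and in the SAPAP3 experiment 6 of 17 alternatives did not call it.

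Gnas encodes Gs, the stimulator of adenylyl cyclase, from an imprinted locus with several promoters whose transcripts the counts join under 1 symbol (chromosome 2, 174284320 to 174346744, plus strand). In the MPTP experiment it had 839.4 to 1036.9 CPM in IP (median 981.5) and 462.4 to 495.3 CPM in input (median 471.3). In the R6/2 experiment it had 835.9 to 1035.1 CPM in IP (median 953.3) and 489.1 to 558.0 CPM in input (median 533.8). In the SAPAP3 experiment IP was much the same, at 863.3 to 1011.4 CPM (median 915.6), but input was higher, at 415.4 to 882.9 CPM (median 780.7), and its lowest value was wild-type replicate 1. The log2 fold change of IP over input was 1.01 ± 0.041 (adjusted p 4.15e-14), 0.32 ± 0.101 in the SAPAP3 experiment (adjusted p 0.0084) and 0.83 ± 0.043 in the R6/2 experiment (adjusted p 1.03e-11, edgeR). Without wild-type replicate 1 the SAPAP3 value was 0.23 and still called, while upper-quartile scaling (0.18) and limma-trend on log2 FPKM (0.12) did not call it. The antisense genes Nespas, Gm11696 and 4930488L21Rik, which overlap Gnas, Gna13 and Gnao1, had at most 1.60% of the reads of those members in any group.

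Whether IP enrichment differed between the experiments was tested on the groups with no tested agent or knockout. Gna13 was less enriched in R6/2 mice with control cargo than in the mean of wild type and vehicle, by -0.33 ± 0.094 on the log2 scale (edgeR adjusted p 0.0209), and it was the 1 member called of 10. Of all 16318 genes 4.58% were called higher and 10.3% lower in this contrast, so 1 lower call is close to the background. The Gna13 IP libraries had 392.7, 421.2, 472.6 and 430.8 CPM in R6/2 mice with control cargo, against 461.4, 581.5, 473.1 and 583.4 in wild type and 526.9, 511.3, 512.9 and 526.0 in vehicle, each normalized within its experiment. The call was lost without replicate 1, 2 or 4 of the control cargo (-0.30, -0.31 and -0.33) and under upper-quartile scaling (-0.26). With the animal as a replicate block, as the titles pair IP with input, Gna12 was called too (-0.24), and 4159 genes were called in place of 2427. The oligodendrocyte list (7 of 7) and the oligodendrocyte precursor list (5 of 5) were lower in the same contrast, with medians of -0.89 and -1.75, and their part in the Gna13 value was not tested. Genotype, virus cargo and experiment cannot be told apart here.

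A further contrast of wild type with vehicle, added after the values were seen, called Gnas (-0.68 ± 0.167, adjusted p 0.00963), Gnaq (-0.45 ± 0.092, adjusted p 0.00313) and Gnao1 (-0.38 ± 0.092, adjusted p 0.00944) less enriched in wild type by edgeR, where 3.38% of genes were called higher and 9.57% lower. The gap lay in input: Gnas had 77.2 to 141.7 FPKM in wild-type input and 81.4 to 87.1 in vehicle input, while IP averaged 140.4 ± 6.12 FPKM in wild type and 148.5 ± 3.39 in vehicle (SD, n = 4 each). Gnao1 averaged 70.5 ± 1.67 FPKM in wild-type input and 57.9 ± 2.27 in vehicle input, with no overlap. Without wild-type replicate 1, the Gnas value was -0.82 and the Gnaq value -0.52. The Gnas call was lost without wild-type replicate 2 (-0.61), and the Gnao1 call without vehicle replicate 4 (-0.33). With the animal as a replicate block 4 members were called, the fourth being Gna13 (-0.25, edgeR adjusted p 0.0375), and 3892 genes in place of 2113. Oligodendrocyte markers (7 of 7) and 5 of 10 microglial markers were more enriched in wild type, and 3 of 10 astrocyte, 4 of 7 interneuron (median -0.56) and 2 of 8 pan-neuronal markers (median -0.32) less, and their part was not tested. Neither group had a disease model, and the experiments were separate, so experiment and group cannot be told apart.

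**Figure D3:**
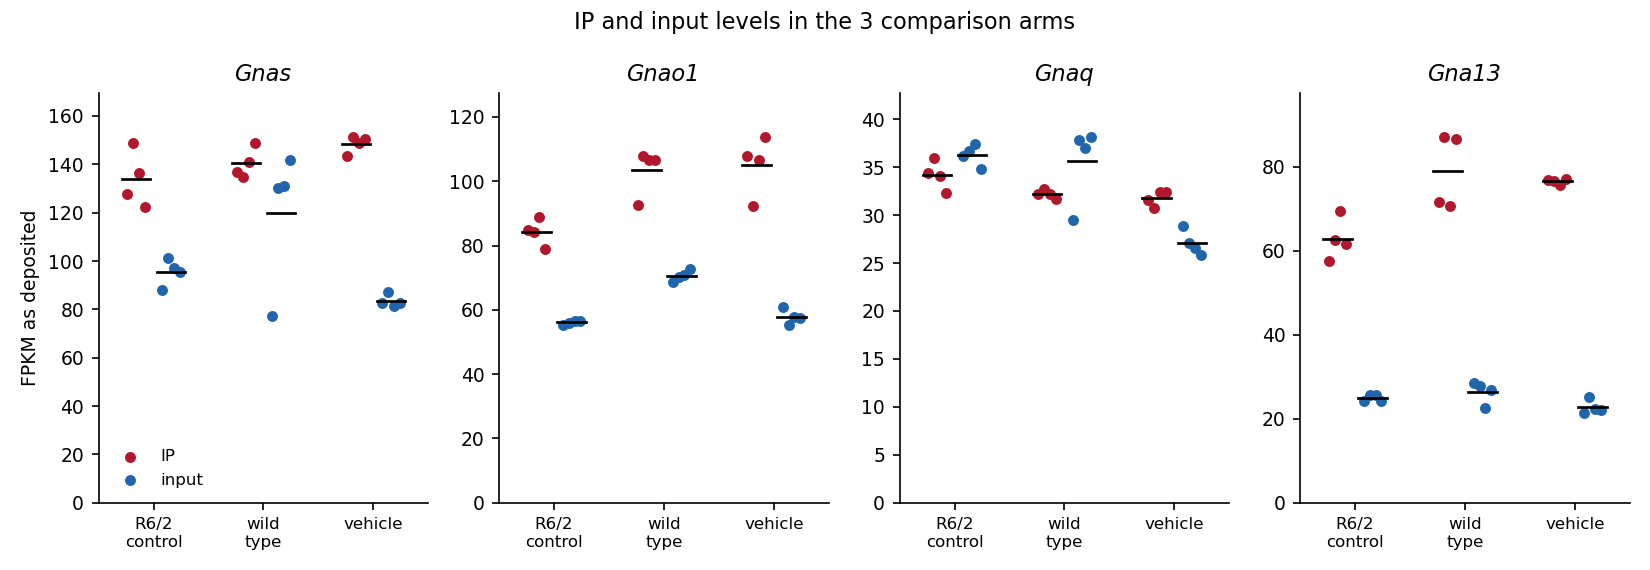
FPKM as deposited (vertical axis, from 0) of Gnas, Gnao1, Gnaq and Gna13 in IP (red) and input (blue) libraries of R6/2 mice with control cargo, wild-type mice and vehicle mice (horizontal axis), with 1 point per library and a black bar at the mean (n = 4 each). Gnas input is high in 3 of 4 wild-type libraries, and Gna13 IP is lowest in R6/2 mice, at 62.8 FPKM on average.

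With hM4Di, the Gi-coupled receptor, Gna12 and Gnai2 were higher in astrocyte IP of R6/2 mice than with control cargo, and no member was called lower. Chrm4, the mouse M4 receptor gene, had 597.0 to 910.5 CPM in hM4Di IP against 39.7 to 69.8 CPM in control cargo IP, and the counts do not separate it from the designer receptor. Chrm4 was higher in input too, at 331 to 511 CPM with hM4Di against 42.8 to 61.7 CPM with control cargo (log2 fold change 3.14, edgeR adjusted p 1.20e-05). Its change in IP beyond that in input was not called (0.83, edgeR adjusted p 0.0838). Of 15159 genes tested in IP, 9.06% were called higher and 5.63% lower with hM4Di, so 2 higher calls among 10 members lie near the background. The median log2 fold change of the members was 0.08 and that of all genes 0.01.

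Gna12 had 108.5, 119.3, 98.6 and 107.6 CPM in the hM4Di IP libraries, against 90.5, 89.7, 87.6 and 77.2 CPM in the control cargo IP libraries. All hM4Di libraries were above all control cargo libraries, and the log2 fold change was 0.34 ± 0.069 (edgeR adjusted p 0.0162). The call held in 17 of 18 alternatives and was lost without hM4Di libraries 2 and 3 together (0.33, adjusted p 0.0575, edgeR). In input Gna12 had 71.3, 82.2, 68.5 and 73.4 CPM with hM4Di and 72.8, 81.6, 71.1 and 69.8 CPM with control cargo, which overlapped (-0.00 ± 0.065). Amz1, the gene on its other strand, did not pass in IP (-0.38, edgeR adjusted p 0.35).

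Gnai2, which had more FPKM in IP than Gnai1 and Gnai3, had 256.1, 266.6, 259.6 and 252.0 CPM in hM4Di IP, against 235.0, 224.3, 249.5 and 218.3 CPM in control cargo IP. The groups did not overlap, yet the change was small (0.17 ± 0.047 on the log2 scale, edgeR adjusted p 0.046), and 13 of 18 alternatives did not call it. These included leaving out any 1 library except control cargo replicate 3. Its relatives Gnai3 (0.15 ± 0.056, adjusted p 0.0938) and Gnai1 (0.15 ± 0.082, adjusted p 0.262) had values of the same size and were not called by edgeR. Gnai3 had 93.3, 97.6, 103.3 and 97.1 CPM with hM4Di and 89.2, 94.996, 88.4 and 80.8 CPM with control cargo. Gnas was at 0.14 ± 0.058 (adjusted p 0.131) and Gna13 at -0.13 ± 0.057 (adjusted p 0.147, edgeR), neither called. Gnaq was lower in every hM4Di IP library, at 203.8, 198.0, 201.4 and 199.99 CPM against 213.1, 219.9, 210.9 and 205.2 CPM with control cargo, but its difference of -0.07 ± 0.035 did not pass (edgeR adjusted p 0.19). Gnao1 (-0.08), Gnaz (-0.16) and Gna11 (0.01) did not pass. A fit of all 16 R6/2 libraries called 4 members, adding Gnai3 and Gna13.

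**Figure D4:**
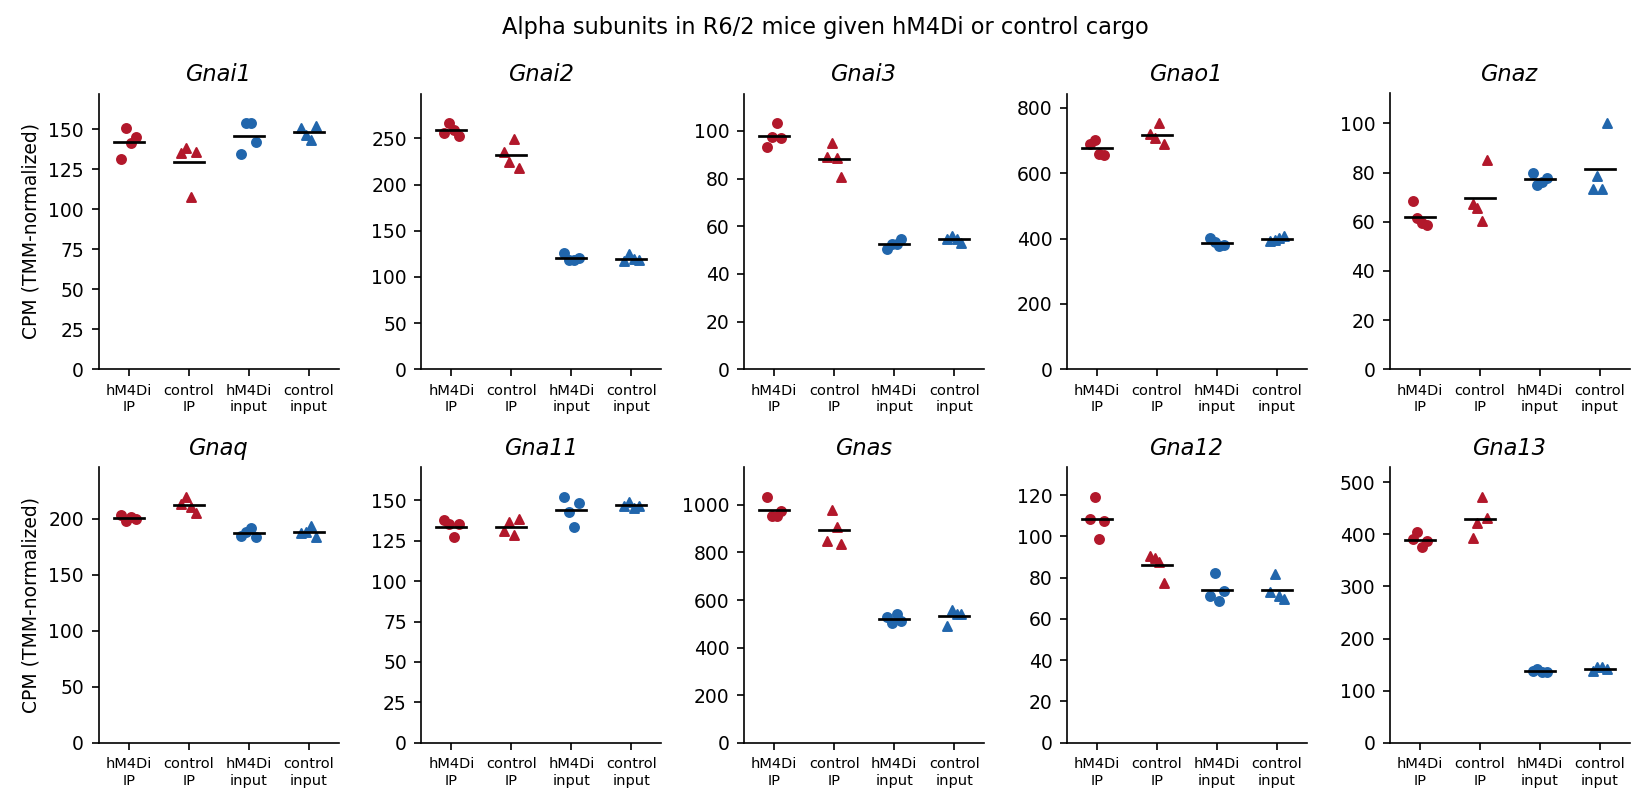
TMM-normalized CPM (vertical axes, from 0) of each alpha subunit gene in IP (red) and input (blue) libraries of R6/2 mice with hM4Di (circles) and with control cargo (triangles), 1 point per library and a black bar at the mean (n = 4 each). In IP all hM4Di libraries lie above the control cargo libraries for Gna12 and Gnai2 and below them for Gnaq, and in input the groups overlap for every gene.

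In input, 0 of 10 members were called by edgeR, where 0.0198% of genes were called higher and 0% lower, and DESeq2 called 0 members as well. Over all 15168 genes, 1163 had an unadjusted p under 0.05. The change in IP beyond that in input was called for 0 members by edgeR, where 1.9% of 15880 genes were called higher and 1.2% lower and 2834 had an unadjusted p under 0.05. Gna12 was at 0.33 ± 0.101 in that contrast (edgeR adjusted p 0.0844). With the animal as a replicate block, which the titles give, 3 members passed: Gna12 (0.33, adjusted p 0.000514), Gnai3 (0.20, adjusted p 0.00987) and Gnas (0.17, adjusted p 0.0413, edgeR), and 2761 genes were called in place of 492. DESeq2 called 1 member, Gna12 (adjusted p 0.0416).

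Other genes of G protein signalling were called in the same IP comparison, where 9.06% of all genes tested were called higher and 5.63% lower. Of 14 beta and gamma subunits tested, 2 were higher, Gng11 (0.97 ± 0.154, adjusted p 0.00709) and Gng12 (0.26, adjusted p 0.0225), and 2 lower, Gng7 (-0.43) and Gnb5 (-0.28), by edgeR. Gng7 is the gamma partner of Golf in the striatum, and Gnal itself fell by 0.38, with 598.9, 533.5, 571.8 and 579.4 CPM in hM4Di IP against 735.7, 640.7, 696.2 and 912.2 CPM with control cargo. Of 6 chaperones and modulators of alpha subunits, 3 were lower: Ric8b, the chaperone of Gs and Golf (-0.23), Gprin1 (-0.32) and Gprin3 (-0.28), and none was higher. Among 8 adenylyl cyclases 1 was lower, Adcy1 (-0.31). Among 7 effectors of Gq and G12/13, Arhgef1, a guanine nucleotide exchange factor, was higher (0.39 ± 0.078, edgeR adjusted p 0.0156), and Plcb1, a phospholipase C, lower (-0.35 ± 0.049, edgeR adjusted p 0.00466). Relative to input, Gng11 (0.89), Gng12 (0.36), Plcb1 (-0.36) and Gprin3 (-0.41) were called, where 1.9% of all genes were called higher and 1.2% lower. Gng7 (-0.44, adjusted p 0.0772), Gnal (-0.40, adjusted p 0.0702) and the other genes named in this paragraph were not called there by edgeR.

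The cell type markers moved in these libraries too. All 7 oligodendrocyte markers were higher with hM4Di in IP (median 0.81), with summed levels of 1332 to 1935 FPKM in hM4Di IP and 734 to 1049 FPKM in control cargo IP. Of 10 medium spiny neuron markers 7 were lower (median -0.51), with sums of 499 to 526 FPKM against 599.6 to 916 FPKM, and of 8 pan-neuronal markers 3 were lower, with sums of 1290 to 1469 FPKM against 1510 to 1646 FPKM. Of 10 astrocyte markers 3 were lower (median -0.14), with sums of 4300 to 4818 FPKM against 5104 to 5877 FPKM. In input none of these 4 lists had a called marker, and the oligodendrocyte sums were 1264 to 1529 FPKM with hM4Di and 1236 to 1534 FPKM with control cargo. The part of these markers in the values of Gna12, Gnai2 and the pathway genes was not tested.

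MPTP and the loss of SAPAP3 left every alpha subunit short of the threshold. With MPTP 0 of 10 members were called in IP or in input, and 0% of the 15069 and 15601 genes tested were called in either direction. The unadjusted p was under 0.05 for 1692 genes in IP and 1289 in input, and DESeq2 called 302 and 68 genes, none of them members. In MPTP IP the largest member values were -0.15 ± 0.080 for Gna13, with 538.9, 465.4, 404.9 and 444.7 CPM against 526.9, 511.3, 512.9 and 526.0 CPM in vehicle, and 0.12 ± 0.059 for Gnai1. In MPTP input Gnao1 had 381.8, 401.7, 356.2 and 337.4 CPM against 441.6, 397.1, 419.6 and 411.6 CPM in vehicle, a log2 difference of -0.17 ± 0.053 with an unadjusted edgeR p of 0.00777 and an adjusted p of 0.512. The groups overlapped for every member in both fractions, and the change in IP beyond that in input called 0 members and 0% of genes, with 1266 genes at an unadjusted p under 0.05 and 55 genes but no member called by DESeq2.

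In SAPAP3 knockout mice 0 members were called in IP, where 0.00658% of 15198 genes were called higher and 0.0197% lower and 399 had an unadjusted p under 0.05. In input 0 members were called as well, where 0% of 15591 genes were called higher and 0.00641% lower and 869 had an unadjusted p under 0.05. DESeq2 called 8 genes in each fraction and no member. The largest member value in IP was Gna13, with 566.7, 610.5, 581.2 and 565.6 CPM in knockout and 461.4, 581.5, 473.1 and 583.4 CPM in wild type (0.14 ± 0.089). In input it was Gnas, with 769.7, 794.2, 863.7 and 882.9 CPM in knockout and 415.4, 727.1, 744.3 and 791.8 CPM in wild type (0.31 ± 0.170, edgeR adjusted p 0.735). That value rested on wild-type replicate 1, without which it was 0.14, and so did Gnai1 in input, at 0.22 with that replicate and 0.07 without it. The contrast of IP with input changes called 0 members and 0% of genes by edgeR, with 203 genes at an unadjusted p under 0.05, and DESeq2 called 1 gene and no member.

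**Figure D5:**
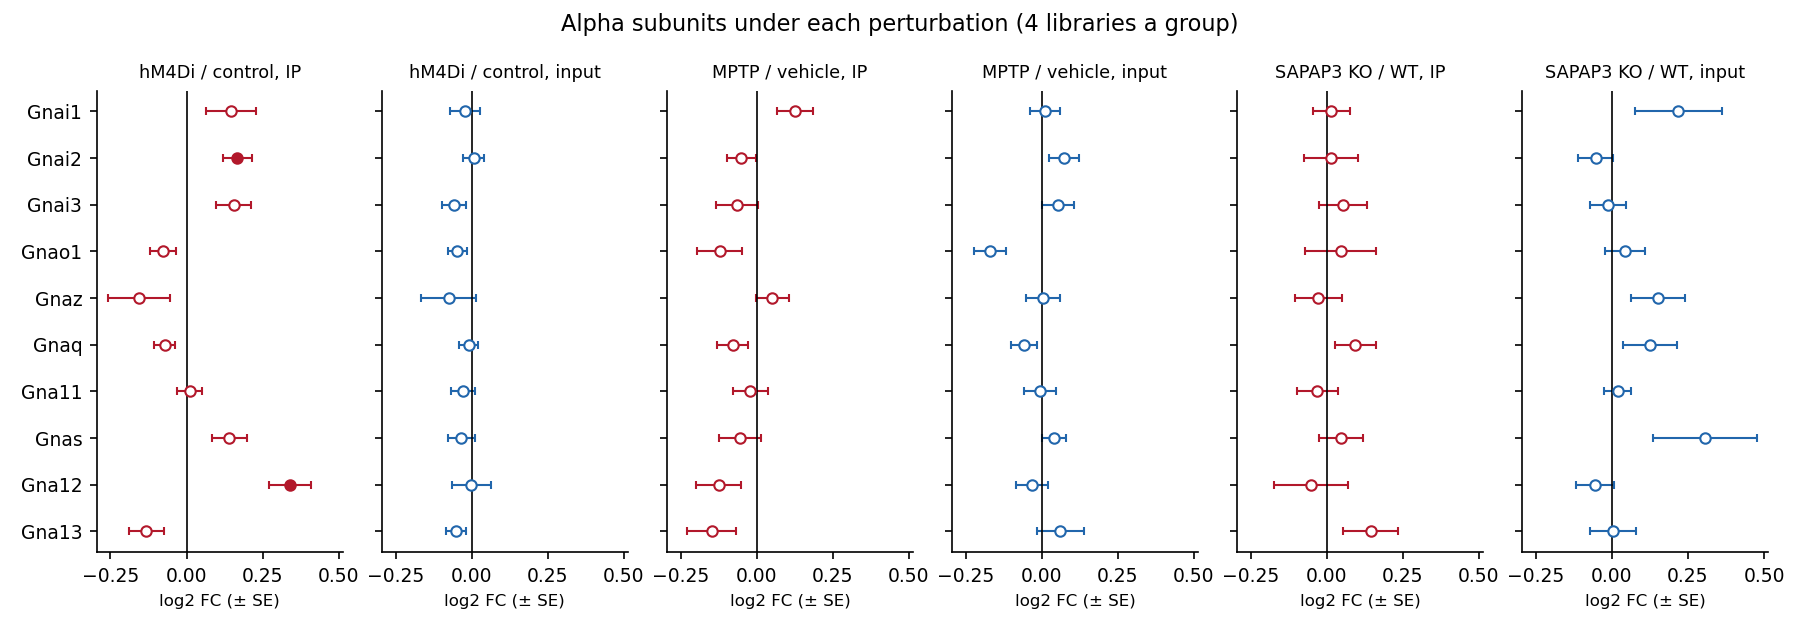
Log2 fold change (horizontal axes, ± SE) of each alpha subunit gene (vertical axis) for hM4Di over control cargo, MPTP over vehicle and SAPAP3 knockout over wild type, in IP (red) and input (blue), 4 libraries a group. Filled points passed the adjusted threshold of 0.05. Only Gna12 and Gnai2 under hM4Di in IP are filled.

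Other genes of the pathway are given here for IP against input, as those with the smallest p among the ones called in all 3 experiments. Most of all genes tested were called too (40.7% higher and 42.9% lower in the MPTP experiment), so these counts show nothing particular to the pathway. Of the other alpha subunits, Gna15, known from blood cells, was lowest in IP (log2 fold changes of -4.27, -3.23 and -4.23 in the MPTP, SAPAP3 and R6/2 experiments), Gnal was lower (-0.63, -0.47 and -0.55) and Gna14, of the Gq class, higher (0.66, 1.23 and 1.17). Of 17 beta and gamma genes 12 were called in all 3, among them Gng12, higher by 1.49, 1.23 and 1.10, and Gng13 (-2.92, -2.32 and -2.45), Gng10 (-1.27, -0.72 and -1.01) and Gngt2 (-3.66, -2.82 and -2.39), lower. Among effectors, Plcb3, a phospholipase C beta, was higher by 2.16, 2.15 and 2.13 and Plcb4 by 1.73, 0.40 and 1.42. Arhgef12, a guanine nucleotide exchange factor, was higher by 0.86, 0.64 and 0.52, and Plcb2 was lower (-1.97, -1.85 and -2.12). Among adenylyl cyclases Adcy2 (1.91, 0.80 and 1.71) and Adcy6 (0.88, 0.26 and 0.69) were higher and Adcy1 (-0.55, -1.05 and -0.87) and Adcy4 (-3.30, -3.20 and -3.78) lower. Of the chaperones and modulators, Ccdc88a (0.86, 0.70 and 0.42) and Gpsm2 (0.50, 0.62 and 0.52) were higher and Ric8b (-0.88, -0.71 and -0.68) and Gpsm3 (-3.19, -2.26 and -2.47) lower.

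Across the 48 libraries, which share the contrast of IP with input, the genes most like each member among 12569 candidates were described by Pearson's r of log2 CPM. Gna13 was most like Add3 and Prex1 (0.99 each), Gnai2 like Mlc1 and Athl1 (0.99 each), Gnai3 like Etfdh and Hsd17b4 (0.99 each) and Gnao1 like Mgat5 (0.99) and Ctnnd2 (0.98). Gnas was most like Plcb4 and Apba2 (0.98 each), Gnaq like Apc and Srgap3 (0.96 each), Gna12 like Rnf13 (0.93) and Paqr4 (0.92) and Gnaz like Pgbd5 and Celf4 (0.90 each). Gnai1 was most like Rnf130 (0.88) and Slitrk1 (0.87), and Gna11 like Mau2 (0.88) and Snx21 (0.87).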

How the data were processed

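The submitters' processing notes name STAR, HTSeq and the build mm10; their versions, gene annotation and strand setting are not given in the sources used here. The kit was stranded, per the labels. The deposited tables hold whole read counts and FPKM for 24060 symbols in 48 libraries. The authors' FPKM was checked: it equals the count over a fixed gene length and over the library's summed counts, with no other scaling. No column was unmapped.

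Counts were tested in R 4.3.3 with edgeR 4.0.16 (filterByExpr by group, minimum count 10, TMM, quasi-likelihood F test, Benjamini-Hochberg over all genes tested, threshold 0.05). "Over 2-fold" means an absolute log2 fold change above 1 with that threshold. CPM are TMM-normalized over the 16 libraries of an experiment, and SE is implied by the F statistic. Fits were also run on simulated counts. The simulated libraries were independent, without pairs from a mouse or a shift in composition, so that run does not check the pairing or the scaling. IP against input had the condition as covariate. Alternatives were RLE and upper-quartile scaling, DESeq2 1.42.0, limma 3.58.1 (voom, and trend on log2 of FPKM plus 1), filters, replicate blocks, 1 fit of all 16 libraries, and left-out libraries. Xist ranged from 0.0336 to 232.5 CPM in knockout input (median 1.83) and from 0 to 169.8 CPM in wild-type input (median 0.119). The high values thus lay in a minority of the libraries of each group. It did not pass the filter in the other experiments. SAPAP3 mice with Xist reads were therefore left out in an alternative, and whether the groups mixed sexes was not tested. The members, lists and tests were chosen with earlier results of these data known. The named pathway genes were up to 4 a list with the smallest p among those called, for IP against input over all 3 experiments, and the named alike genes the 2 with the highest r. Nothing in the labels states separate cultures or litters. For a condition within 1 fraction, p-values measure the spread between mice. The main tests of IP against input, and of its differences between groups, took both libraries of a mouse as independent. Their p-values therefore do not measure the spread of paired differences, which only the block alternative used.

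IP and input titles of a replicate share a mouse name, but those of MPTP replicate 2 differ, and wild-type replicate 3 may hold 2 mice by its title. Deviations of IP and input of a replicate correlated at 0.387 to 0.636 in the R6/2, 0.249 to 0.517 in the SAPAP3 and 0.0638 to 0.377 in the MPTP experiment, so these were blocked as pairs in an alternative. Equal numbers across conditions mark no shared mouse.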

Additional observations from a re-analysis of the deposited data

Results flagged for a closer look

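Of 120 sets of 4 libraries (10 genes in 12 groups), 7 held a library far from the other 3, where chance gives about 1 in 20. In CPM these were Gna13 in MPTP input replicate 1 (162.3), Gnai1 in control cargo IP replicate 3 (107.4) and in vehicle IP replicate 2 (114.2), Gnao1 in wild-type IP replicate 1 (745.9), Gnaq in wild-type input replicate 1 (147.4), and Gnaz in knockout input replicate 2 (74.7) and wild-type IP replicate 2 (54.6). In wild-type input replicate 1 the Gs share of the summed FPKM was 18.2%, against a median of 26.5% over the 4 wild-type input libraries.

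The enrichment of IP over input differed between groups for Gna13, by -0.33 on the log2 scale in R6/2 with control cargo against the mean of wild type and vehicle, and, in a contrast added after the values were seen, for Gnao1 (-0.38), Gnaq (-0.45) and Gnas (-0.68) in wild type against vehicle. Each was tested as a difference of differences.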

How the results depend on the processing

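Among repeats of single-gene values, 1075 kept direction and side of the threshold, 38 lost the call, 8 gained it and 17 turned sign. The sign turned for Gnaq in the SAPAP3 experiment under upper-quartile scaling (-0.081), limma-trend on log2 FPKM (-0.15) and a mean CPM of at least 1 (-0.015), for Gnaq in the R6/2 experiment under limma-trend (-0.10), for Gna11 with hM4Di in IP under upper-quartile scaling (-0.010) and between -0.016 and 0.032 without 1 replicate, and for Gna12, hM4Di against control cargo, input, under upper-quartile scaling (0.0062), limma-trend (0.0024) and all 16 libraries in 1 fit (0.000658). Left-out replicates gave -0.056 to 0.048 for Gna12 and -0.013 to 0.023 for Gnai2 with hM4Di in input.

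Members called with hM4Di in IP, 2 in the main test, were 1 under RLE, upper-quartile scaling, no filter, a mean CPM of at least 1 and the replicate block of equal numbers, 4 in 1 fit of all 16 libraries, 0 without both hM4Di libraries 2 and 3, and 1 to 2 without 1 replicate. For the change beyond input, 0 members became 1 with DESeq2 and 3 with the replicate block. For R6/2 against wild type and vehicle, 1 member became 0 under upper-quartile scaling, 2 with the block and 0 to 1 without 1 replicate; for wild type against vehicle, 3 became 4 with the block and 2 to 3 without 1.

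Genes called with hM4Di in IP (2227) were 3491 with DESeq2, 3636 in 1 fit, 464 without both libraries and 892 to 2130 without 1 replicate (892 without control cargo replicate 1, 1084 without hM4Di replicate 2, 1409 without control cargo replicate 4); in input (3) they were 53, 5 with no filter, 6 with the block, 5 without both libraries and 3 to 4; beyond input (492) they were 1154 with DESeq2, 2761 with the block, 82 without both and 91 to 433. With MPTP in IP (0) they were 302 with DESeq2, 289 in 1 fit and 0 to 65 without 1 replicate (65 without vehicle replicate 2, 14 without MPTP replicate 1); in input (0) 68 with DESeq2, 1 with no filter, 1 with the block and 0 to 2; beyond input 55 with DESeq2. In knockout IP (4) they were 8 with DESeq2, 2 with the block, 0 without mice with Xist reads and 0 to 3 without 1 replicate; in input (1) 8, 3 in 1 fit, 0 without those mice and 0 to 1; beyond input 1 with DESeq2. For R6/2 against wild type and vehicle (2427) they were 4159 with the block and 1461 to 3019 without 1 replicate. For wild type against vehicle (2113) they were 3892 with the block, 1144 without mice with Xist reads and 932 to 2855 without 1 replicate.

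The share of higher calls with hM4Di in IP was 61.7%, 50.6% under upper-quartile scaling and 75.0% under limma-trend; beyond input 61.4%, and 51.2% under RLE, 44.7% under upper-quartile scaling and 77.2% under limma-trend. For R6/2 against wild type and vehicle it was 30.8%, and 42.4%, 53.2% and 49.8% under RLE, upper-quartile scaling and a mean CPM of at least 1; for wild type against vehicle 26.1%, 47.1% under upper-quartile scaling and 53.1% under limma-trend. For IP against input it was 48.7%, 50.2% and 48.9%, and 39.1%, 39.8% and 39.9% under upper-quartile scaling and 33.5%, 34.5% and 31.6% under limma-trend. Where no construction shows it, the cause was not tested. With 4 mice a group, differences of the size of Gnai2 are near the limit. Deviations of equal replicate numbers across conditions correlated at r -0.35 to 0.39. The highest value was in input of the SAPAP3 experiment, where some equal numbers were each other's best match, although the titles name different mice.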
